A study of Mus musculus with 20 samples.

Results

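The genes described here are protein-coding genes of the mouse mitochondrial genome: mt-Nd1, mt-Nd2, mt-Nd4, mt-Nd5, and mt-Nd6 of complex I, mt-Cytb of complex III, mt-Co1, mt-Co2, and mt-Co3 of complex IV, and mt-Atp6 of complex V. They were chosen as 10 named genes, matched by symbol to the Ensembl identifiers of the count table. Counts were used for 7 of them, among 15956 genes listed in all, and mt-Co2, mt-Co3, and mt-Atp6 were not analysed here. RNA from the left ventricle of 20 male mice was sequenced from the poly(A) end of the transcripts, with 5 mice on each of 4 diets. The normal protein (NP) group received the control diet, the low protein (LP) group the same design of diet with less casein, the high-fat (HF) group a diet rich in fat with the casein of the control diet, and the HF + LP group high fat with the casein of the low protein diet. None of the groups carried a transgene or a drug treatment in the labels, and all mice had reached middle age before the diets began. Their age is 18 months in the labels, and younger at collection in the study's methods. Mice are named by group and animal number, and a number shared by mice of different groups names different animals.

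Mitochondrial DNA is transcribed from both strands into long RNAs that run through several genes. The transfer RNAs that lie between most of the messenger and ribosomal RNAs are cut out, which frees the messengers, and a poly(A) tail is then added to most of them. The encoded proteins are the hydrophobic core of the respiratory chain and of ATP synthase, and the remaining subunits of these complexes are encoded in the nucleus and imported. The heart is among the tissues richest in mitochondria, and mitochondrial messengers take a large part of its poly(A) RNA.

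Because the libraries were primed with oligo(dT), a read is expected near the place where a run of A meets the primer, and the ends of the genes are therefore shown. Each line gives the last 30 bases of the coding strand from GENCODE M21 on GRCm38, 5′ to 3′, with the letters of the stop codon in capitals. The annotated sequences of mt-Nd4 and mt-Cytb end in a lone T, and their stop codon is completed by added A. The other 5 end in a full stop codon. These are ends of annotated genes, and where the tail of each messenger begins was not tested.
mt-Nd4 (chrM:10167-11544, plus strand): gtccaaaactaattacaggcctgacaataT
mt-Cytb (chrM:14145-15288, plus strand): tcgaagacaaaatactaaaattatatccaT
mt-Nd1 (chrM:2751-3707, plus strand): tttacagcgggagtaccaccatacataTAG
mt-Nd2 (chrM:3914-4951, plus strand): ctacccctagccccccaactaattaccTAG
mt-Nd5 (chrM:11742-13565, plus strand): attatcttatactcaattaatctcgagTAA
mt-Co1 (chrM:5328-6872, plus strand): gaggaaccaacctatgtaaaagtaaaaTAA
mt-Nd6 (chrM:13552-14070, minus strand): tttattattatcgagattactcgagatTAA

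The genes also differ in the runs of A inside them, where an oligo(dT) primer can anneal as well. The 20-base window richest in A is shown for the gene with the longest run and for the gene with the shortest, with every A in capitals. In mt-Nd2 the longest run was 8 bases, and 3 runs reached 6 or more. In mt-Nd6 the longest run was 3 bases, and 22.2% of the gene was A, against 36.9% of mt-Nd2. The mt-Nd2 window starts 127 bases into the gene, and the mt-Nd6 window 222 bases in. The end of mt-Nd6 overlaps that of mt-Nd5 on the opposite strand, and the setting for strand in the counting is not given in the sources used here.
mt-Nd2: AtActAAtcAAcAAAAAAAA
mt-Nd6: tActgAggAAtAtccAgAgA

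Total counts per mouse lay between 12559607 and 23331907. All 10 cardiomyocyte markers on the list were counted, and their summed share was 4.70% to 7.08% of counts in the 20 mice. Markers of the atrium summed to at most 1.77%, in an LP mouse. LP mouse 13 had the lowest median correlation with the other mice of its own diet group, at 0.908. The same median was 0.944 to 0.979 for the other mice, so member fold changes that rest on LP are also given without LP mouse 13. At these depths counting error was small for most members, with the widest 95% Wilson half-width of a mouse's share at 0.0218 percentage points for mt-Nd4. It was not small for mt-Nd6, which had 53 to 286 counts per library. These intervals cover counting error alone, since reads were not marked by molecule.

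The 7 genes together took 38.9% ± 3.43 (SD, n = 20 mice) of all counts, and all 25 listed genes of mitochondrial DNA took 41.4% ± 3.32. Most of this came from 2 genes. mt-Nd4, a proton-pumping subunit of the membrane arm of complex I, took 17.9% ± 2.79 of total counts, and mt-Cytb, the cytochrome of complex III, took 10.3% ± 1.598. mt-Nd1, the subunit beside the quinone site of complex I, took 5.43% ± 0.520. mt-Nd2, another proton-pumping subunit, took 3.73% ± 1.25. mt-Nd5 took 0.830% ± 0.103 and mt-Co1, the catalytic core of cytochrome oxidase, 0.619% ± 0.110. mt-Nd6, the one member coded on the opposite strand, took 0.000734% ± 0.000362. These are shares of reads from transcript ends, not amounts of RNA per length. In the order of the levels, 3 pairs of neighbours overlapped in their ranges over the 20 mice. They were mt-Nd4 (12.2% to 22.1%) with mt-Cytb (6.76% to 13.0%), mt-Nd1 (4.02% to 6.19%) with mt-Nd2 (1.87% to 6.06%), and mt-Nd5 (0.536% to 1.00%) with mt-Co1 (0.290% to 0.766%).

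The first question was whether a high-fat diet changes the mitochondrial messengers at normal protein. The mt-Nd4 share was lower in HF than in NP in every mouse. In NP it was 18.3% in mouse 3, 19.3% in mouse 4, 19.5% in mouse 5, 18.9% in mouse 6, and 20.9% in mouse 8. In HF it was 16.03%, 16.16%, 16.10%, 16.23%, and 14.86% in mice 1 to 5. The groups did not overlap, and 4 of the HF mice lay close together. The means were 19.4% ± 0.972 and 15.9% ± 0.575 (SD, n = 5 each), a difference of -3.51 percentage points in HF. By an exact permutation test, two-sided, p was 0.00794, and 5 mice against 5 cannot give a smaller value. Within the number 1 to 3 that the library names carry, whose meaning the labels do not say, the difference was -3.63 points (exact permutation p = 0.0167).

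mt-Nd4 was 1 of 7 members that did not overlap between HF and NP and was lower, against 1.41% of the 13991 genes tested. No member was higher without overlap, as 827 genes were. The other members overlapped. mt-Cytb was 10.8% ± 1.55 in NP and 9.77% ± 2.31 in HF, where mice 1 and 2 had 7.92% and 6.76% and mice 3 to 5 had 10.5% to 11.8%. mt-Nd1 was 5.46% ± 0.287 and 5.51% ± 0.527, mt-Nd2 3.62% ± 1.37 and 3.68% ± 1.28, and mt-Nd5 0.879% ± 0.0681 and 0.804% ± 0.0307. mt-Co1 was 0.594% ± 0.0645 in NP and 0.661% ± 0.0248 in HF (exact permutation p = 0.0556). Within the library-name number the exact permutation p was 0.0333 for mt-Co1 and 0.0167 for mt-Nd5, whose p was 0.0635 without that split.

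The summed share of the 7 genes was 42.7%, 42.2%, 41.1%, 39.3%, and 38.4% in the NP mice from highest to lowest, and 38.2%, 36.9%, 36.6%, 35.2%, and 34.6% in the HF mice. The highest HF mouse was just below the lowest NP mouse. The means were 40.8% ± 1.87 and 36.3% ± 1.40, a log2 ratio of -0.17. No test was run on this sum, since its members were chosen with results of these data known.

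**Figure D1:**
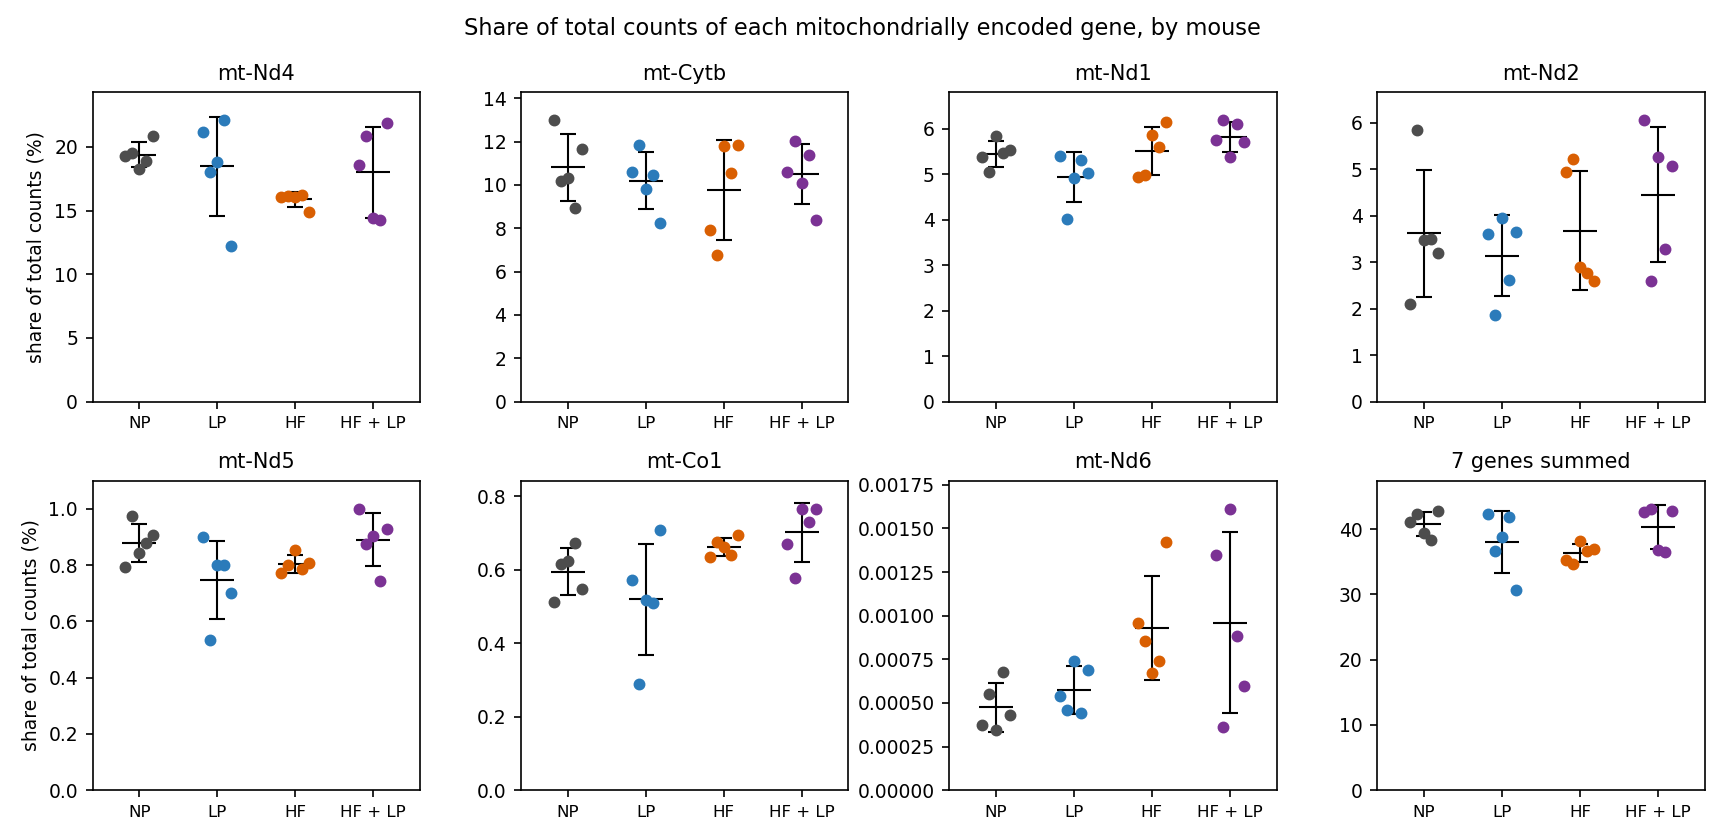
Share of total counts (%) of each of the 7 genes and of their sum in the 4 diet groups. Points are mice (5 per group), bars the mean ± SD, and every vertical axis starts at 0. The 5 HF mice lie between 14.9% and 16.2% for mt-Nd4, below all NP mice, while the LP and HF + LP mice spread from 12.2% to 22.1%.

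Other measures moved beside the mt-Nd4 share. The summed share of the 10 cardiomyocyte markers was 5.73% to 6.68% in NP and 5.06% to 6.35% in HF, and 4 of the 10 were lower at an unadjusted p under 0.05. The 7 macrophage markers summed to 0.0175% to 0.0274% in NP and 0.0253% to 0.0365% in HF, and 3 of the 7 were higher at that level. The 5 erythroid markers summed to 0.324% to 1.01% and 0.617% to 1.35%. The 7 fibroblast markers had means of 0.178% and 0.216%, and the 3 counted skeletal muscle markers 0.0263% and 0.0399%. Endothelial markers had means of 0.109% in NP and 0.138% in HF. Atrial markers had means of 0.128% in NP and 0.351% in HF, with medians of 0.123% and 0.0199%. The highest atrial sum was 0.322% in NP and 1.23% in HF. Of 7 RNAs retained in the nucleus, listed as a sign of RNA quality, 5 were counted, and they summed to 0.187% to 0.556% in NP and 0.135% to 0.333% in HF, with 2 lower at an unadjusted p under 0.05. Their part in the mt-Nd4 difference was not tested, and fewer cells of a type and less RNA per cell cannot be told apart in ventricular tissue.

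With scaling by TMM, which sets aside a shift in the make-up of the libraries, and a quasi-likelihood test over all genes, none of the 7 genes was called in HF compared to NP. A gene was called at an adjusted p under 0.01 with a mean normalized count over 50, which 0.264% of the 13991 genes reached. At an unadjusted p under 0.05, 1 of 7 was lower (7.91% of all genes) and 1 of 7 was higher (5.17% of all genes). The former was mt-Nd4, with a log2 fold change of -0.43 ± 0.18 (SE, edgeR, adjusted p = 0.297). The latter was mt-Nd6, at 0.81 ± 0.31 (edgeR, adjusted p = 0.246). The count of lower members fell to 0 without NP mouse 5 or NP mouse 8 and with library totals only, and rose to 2 without NP mouse 6, without HF mouse 3, and with only the 2 groups compared. That of higher members fell to 0 without HF mouse 5. The remaining log2 fold changes were -0.29 for mt-Cytb, -0.27 for mt-Nd5, -0.13 for mt-Nd1, -0.12 for mt-Nd2, and 0.0094 for mt-Co1, and those of mt-Nd1 and mt-Nd2 turned positive when libraries were scaled by their totals only. With only the NP and HF mice in the model, mt-Nd4 had an adjusted p of 0.0268 (edgeR), which also missed the threshold. DESeq2 called none of the 7 members, and 159 genes in all.

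A share of total counts moves with every other transcript, so each gene was next set against the other mitochondrial counts. mt-Nd6, the subunit of complex I from the opposite strand, was higher in HF on this scale. Its share of mitochondrial counts was 0.00110% ± 0.000325 in NP and 0.00240% ± 0.000790 in HF (SD, n = 5 each). The NP mice lay between 0.000829% and 0.00163% and the HF mice between 0.00170% and 0.00373%, with no overlap (exact permutation p = 0.00794). In HF + LP it ran from 0.000823% in mouse 2 to 0.00387% in mouse 3 and spanned both groups, and in LP it was 0.00144% ± 0.000400. The mt-Nd6 share of total counts was also higher in HF, at 0.000928% ± 0.000297 against 0.000475% ± 0.000140 (exact permutation p = 0.0159), with overlap. The other members overlapped between NP and HF as shares of mitochondrial counts. Non-overlap over all genes was counted only for shares of total counts, where 827 of 13991 genes were higher in HF. Within the library-name number the exact permutation p of mt-Nd6 was 0.05 on both scales. In the NP mouse with the lowest value it rested on 55 counts, with a 95% Wilson interval of 0.000263% to 0.000445%.

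mt-Nd4 took 44.9% ± 2.21 of mitochondrial counts in NP and 41.0% ± 1.46 in HF, a difference of 3.96 points (exact permutation p = 0.0238), and the groups overlapped. mt-Co1 took 1.38% ± 0.176 and 1.71% ± 0.0861 (exact permutation p = 0.0159). In NP the mt-Co1 share was 1.51% in mouse 3, 1.223% in mouse 4, 1.31% in mouse 5, 1.62% in mouse 6, and 1.24% in mouse 8, and in HF it was 1.59%, 1.76%, 1.68%, 1.68%, and 1.82% in mice 1 to 5. Only NP mouse 6 reached the range of the HF mice. mt-Nd1 took 12.7% ± 1.26 and 14.2% ± 1.48. The shares of mt-Cytb (25.1% ± 3.96 and 25.2% ± 6.08) and mt-Nd5 (2.04% ± 0.0799 and 2.08% ± 0.0842) were close in the 2 groups. mt-Nd2 took 8.30% ± 2.68 and 9.48% ± 3.24. These p-values are not adjusted, and shares of one total are not independent. The 7 genes were each tested on 2 scales in 5 comparisons, with further variants of denominator and grouping. Against the geometric mean of the 7 genes in place of the mitochondrial total, the mt-Co1 difference fell from 0.31 to 0.078 on the log2 scale (exact permutation p = 0.206), and mt-Nd5 was lower in HF by a log2 difference of -0.21 (exact permutation p = 0.00794).

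**Figure D2:**
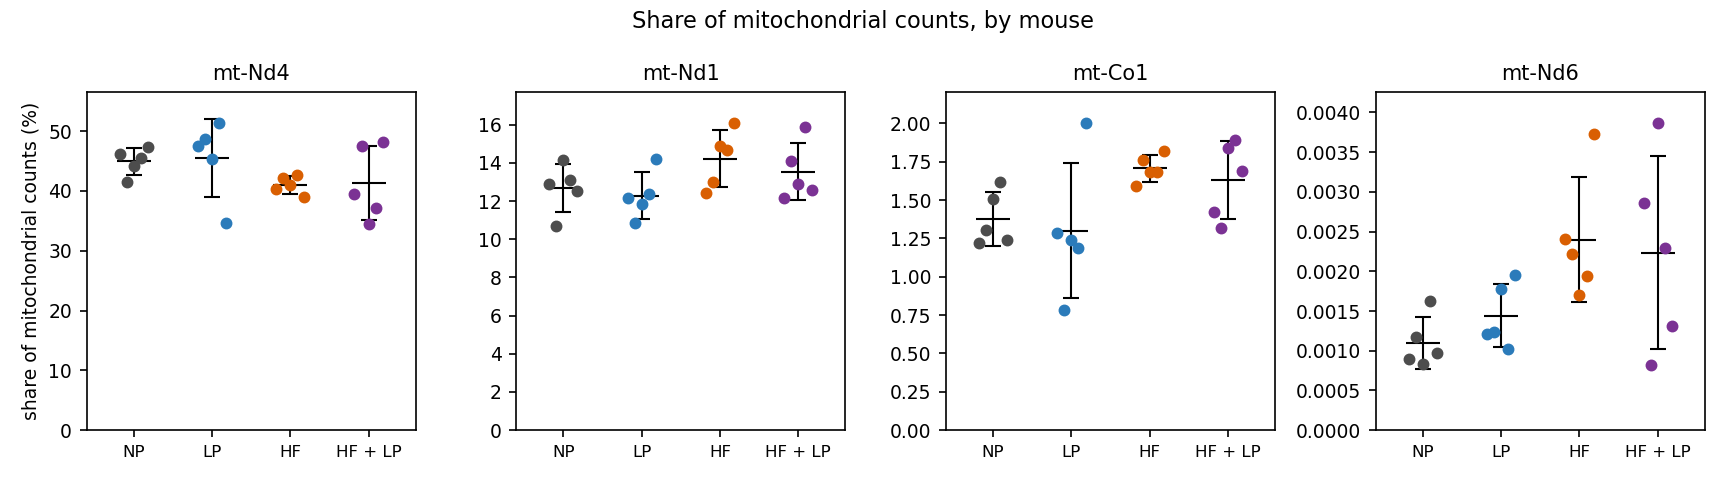
Share of mitochondrial counts (%) of mt-Nd4, mt-Nd1, mt-Co1, and mt-Nd6 in the 4 diet groups. Points are mice (5 per group), bars the mean ± SD, and the axes start at 0. For mt-Nd6 the HF mice lie from 0.00170% to 0.00373%, above all NP mice, and the HF + LP mice cover the range of both.

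The second question was what protein restriction does within the high-fat diet. All 7 genes had a positive log2 fold change in HF + LP compared to HF, from 0.21 for mt-Nd6 to 0.45 for mt-Nd2, with a median of 0.28 against 0.02 over all genes tested, but mt-Nd6 was -0.038 without HF + LP mouse 3. Scaled to mitochondrial counts, mt-Nd1, mt-Nd5, mt-Nd6, mt-Co1, and mt-Cytb turned negative. mt-Nd3, a counted protein-coding gene of mitochondrial DNA that was not among the chosen genes, went the other way with TMM scaling. Its log2 fold change was -1.32 in HF + LP compared to HF (edgeR, unadjusted p = 0.122). In HF compared to NP it was 1.07 (edgeR, unadjusted p = 0.204). No member was called, and 0.0% of all genes was (edgeR). At an unadjusted p under 0.05, 2 of 7 were higher, against 2.41% of all genes. They were mt-Nd1 (0.26 ± 0.12, edgeR, adjusted p = 0.980) and mt-Nd5 (0.33 ± 0.15, edgeR, adjusted p = 0.999). DESeq2 found 1 of 7 at that level and called 13 genes, none of them a member. The count fell to 0 without any of HF mice 1, 2, and 4 or HF + LP mice 1, 2, and 5, and to 0 with RLE scaling, TMM over nuclear genes, library totals only, and a covariate for the library-name number. It rose to 4 with only the 2 groups compared and to 3 without HF + LP mouse 4. mt-Cytb had 0.28, mt-Co1 0.26, and mt-Nd4 0.37. Without single mice these ran from 0.18 to 0.34, 0.19 to 0.31, and 0.26 to 0.46. The mt-Nd2 value was 0.28 without HF + LP mouse 1. The macrophage markers summed to 0.0253% to 0.0365% in HF and 0.0168% to 0.0242% in HF + LP, without overlap. Of single genes, 362 of 13991 were lower without overlap in that comparison. The 7 fibroblast markers summed to 0.176% to 0.243% in HF and 0.138% to 0.209% in HF + LP, and the 3 counted skeletal muscle markers to 0.0260% to 0.0544% and 0.00983% to 0.0266%. The RNAs retained in the nucleus had means of 0.218% in HF and 0.290% in HF + LP. Atrial markers had means of 0.351% and 0.134%, with medians of 0.0199% and 0.0134%. Their part in the member values was not tested.

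For mt-Nd4, the share of total counts in the HF + LP mice fell on both sides of HF. The mt-Nd4 share in HF + LP was 18.6%, 20.9%, 14.4%, 14.3%, and 21.9% in mice 1 to 5, so 3 mice lay above all HF mice and 2 below them. The mean was 18.0% ± 3.55 against 15.9% ± 0.575 in HF. The summed share was 42.6% to 43.1% in 3 HF + LP mice, above the HF range of 34.6% to 38.2%, and 36.5% and 36.8% in the other two, inside it. The mean sum was 40.4% ± 3.40, a log2 ratio of 0.15 to HF. No member was without overlap between HF + LP and HF in its share of total counts, against 2.66% of all genes. Set against mitochondrial counts alone, mt-Nd4 took 41.4% ± 6.22 in HF + LP and 41.0% ± 1.46 in HF. mt-Nd2 took 10.2% ± 2.95 of mitochondrial counts in HF + LP and 9.48% ± 3.24 in HF, a difference within the spread between mice.

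The third question was the effect of low protein without high fat. In LP compared to NP, 6 of 7 genes had a negative log2 fold change, from -0.19 for mt-Nd4 to -0.35 for mt-Nd5, with -0.21 for mt-Cytb, -0.32 for mt-Co1, and -0.35 for mt-Nd2, and mt-Nd6 had 0.12. None was called, and 0.0% of all genes was (edgeR, and 4 genes with DESeq2, none a member). At an unadjusted p under 0.05, 2 of 7 were lower, against 2.21% of all genes: mt-Nd1 (-0.26 ± 0.12, edgeR, adjusted p = 0.664) and mt-Nd5 (-0.35 ± 0.15, edgeR, adjusted p = 0.654). Without LP mouse 13 the log2 fold changes were -0.17 for mt-Nd1, -0.23 for mt-Nd5, -0.19 for mt-Nd2, -0.15 for mt-Co1, -0.15 for mt-Nd4, -0.24 for mt-Cytb, and 0.22 for mt-Nd6. Without LP mouse 5, mt-Nd4 was -0.057 and mt-Cytb -0.13. Without LP mouse 13, LP mouse 20, or NP mouse 8 the count was 0, as it was with library totals only and with only the 2 groups compared, and without LP mouse 5, NP mouse 3, NP mouse 5, or NP mouse 6 it was 1. The count rose to 3 without LP mouse 2. LP mouse 13 had the lowest mt-Nd1 (4.02%), mt-Nd2 (1.87%), mt-Nd5 (0.536%), and mt-Co1 (0.290%) shares of the 20 mice, and LP mouse 5 the lowest mt-Nd4 share (12.2%). The mt-Nd4 share of the other LP mice was 21.2% in mouse 2, 18.0% in mouse 13, 22.1% in mouse 15, and 18.8% in mouse 20. The summed share in LP was 38.0% ± 4.75, a log2 ratio of -0.10 to NP, and of -0.087 without LP mouse 13 and -0.032 without LP mouse 5. Marker sums were higher in mean in LP than in NP for erythroid cells (0.981% and 0.560%), atrium (0.505% and 0.128%), adipocytes (0.0126% and 0.00249%), and T and B cells (0.00242% and 0.000141%). Single LP mice carried part of this, since the adipocyte medians were 0.00082% in LP and 0.00119% in NP, and those of T and B cells 0.000294% and 0.000122%. Their part in the member values was not tested.

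High fat at low protein was read from HF + LP compared to LP, which shares its mice with the comparisons above. All 7 genes were positive, from 0.12 for mt-Nd4, which was -0.038 with library totals only and -0.0055 without LP mouse 5, to 0.90 for mt-Nd6. None was called, against 0.1% of all genes. At an unadjusted p under 0.05, 5 of 7 were higher, against 6.26% of all genes. mt-Co1 had 0.58 ± 0.18 (edgeR, adjusted p = 0.126) and mt-Nd1 0.39 ± 0.12 (edgeR, adjusted p = 0.128), and the others were mt-Nd2 (0.67), mt-Nd5 (0.40), and mt-Nd6 (0.90). mt-Cytb had 0.20. Without LP mouse 13 the log2 fold changes were 0.41 for mt-Co1, 0.30 for mt-Nd1, 0.51 for mt-Nd2, 0.28 for mt-Nd5, 0.80 for mt-Nd6, 0.083 for mt-Nd4, and 0.22 for mt-Cytb. Without LP mouse 13 or HF + LP mouse 1 the count was 3, and with library totals only it was 4. With DESeq2 the adjusted p of mt-Nd1 was 0.0351 and that of mt-Co1 0.0501, neither under 0.01, and DESeq2 called none of the 7. The summed share had a log2 ratio of 0.087, and of 0.073 without LP mouse 13 and 0.018 without LP mouse 5. In mean, marker sums were lower in HF + LP than in LP for atrium (0.134% and 0.505%) and macrophages (0.0200% and 0.0272%). So were those of the RNAs retained in the nucleus (0.290% and 0.381%). Adipocyte medians were 0.000188% in HF + LP and 0.00082% in LP, and those of T and B cells 0.000187% and 0.000294%. Their part in the member values was not tested.

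In HF + LP compared to NP none of the 7 was called, against 0.0286% of all genes, and 1 of 7 was higher at an unadjusted p under 0.05, against 3.9% of all genes. This was mt-Nd6, at 1.02 ± 0.31 (edgeR, adjusted p = 0.264), and DESeq2 called none of the 7. The other 6 had -0.063 for mt-Nd4, -0.015 for mt-Cytb, 0.052 for mt-Nd5, 0.13 for mt-Nd1, 0.27 for mt-Co1, and 0.32 for mt-Nd2. The summed share was 40.4% in HF + LP and 40.8% in NP, a log2 ratio of -0.014.

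The interaction asks whether low protein acted differently with and without high fat. Its log2 estimate was positive for all 7 genes, with a median of 0.55 against -0.006 over all genes, but mt-Nd6 (0.089) was -0.22 with library totals only. None was called, and 0.0% of all genes was (edgeR), while DESeq2 called 1 gene, not a member. At an unadjusted p under 0.05, 5 of 7 were higher, against 2.86% of all genes. They were mt-Nd1 (0.52 ± 0.17, edgeR, adjusted p = 0.621), mt-Nd5 (0.68 ± 0.22, edgeR, adjusted p = 0.622), mt-Nd4 (0.55), mt-Co1 (0.57), and mt-Cytb (0.49), while mt-Nd2 had 0.79. Without LP mouse 13 the estimates were 0.43 for mt-Nd1, 0.56 for mt-Nd5, 0.51 for mt-Nd4, 0.40 for mt-Co1, 0.51 for mt-Cytb, 0.64 for mt-Nd2, and -0.0095 for mt-Nd6. The count was 4 without LP mouse 13, and 3 without LP mouse 5, LP mouse 20, NP mouse 5, NP mouse 8, HF + LP mouse 1, or HF + LP mouse 5. It was 1 when libraries were scaled by their totals only, a scaling that moved the median of all genes to -0.32 in the interaction, to 0.14 in HF compared to NP, and to -0.15 in HF + LP compared to HF. The 7 genes share transcripts and libraries and are not independent of each other.

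**Figure D3:**
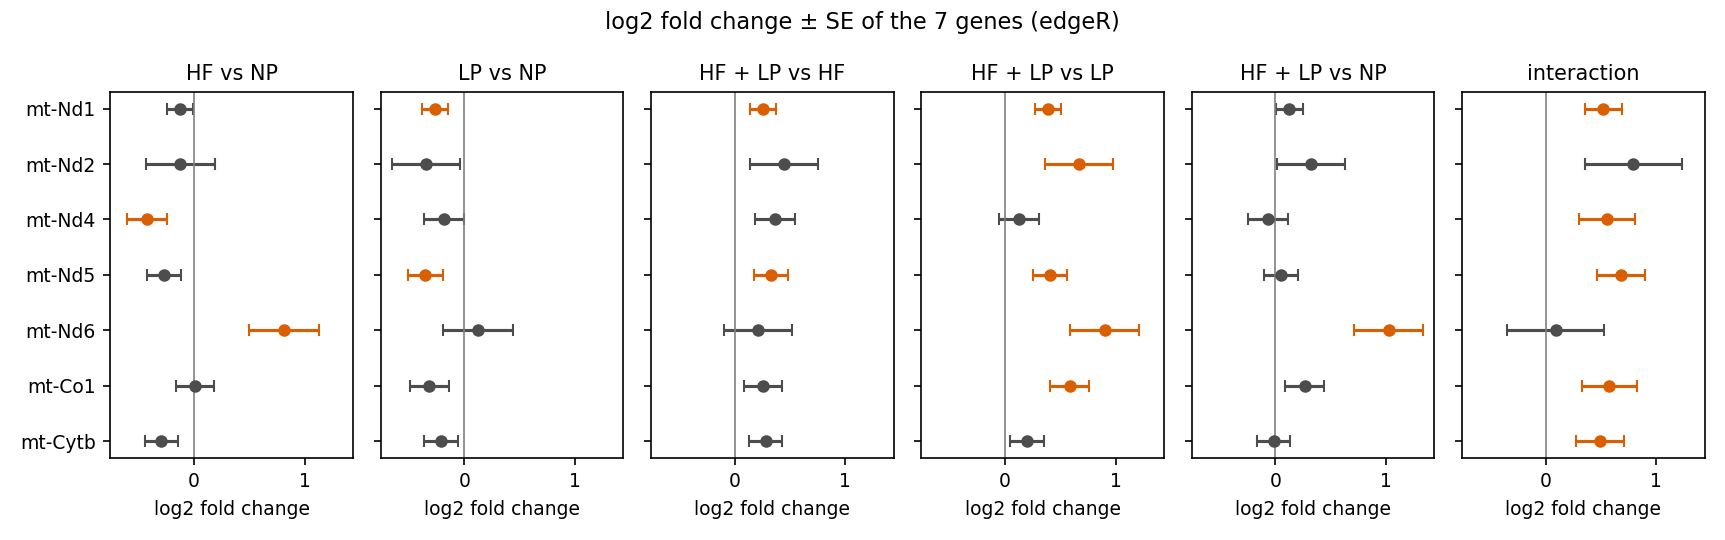
Fold change on the log2 scale ± SE (edgeR, all 20 mice) of the 7 genes in the 5 comparisons and the interaction. Orange marks an unadjusted p under 0.05, grey the rest, and no value passed the adjusted threshold. All 7 points are positive in HF + LP compared to HF and in the interaction, though mt-Nd6 turned negative in the former without HF + LP mouse 3 and in the latter with library totals only.

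Transfer RNAs of mitochondrial DNA, which are cut out beside the messengers, were listed for 15 genes and tested for 12. In HF compared to NP, 10 of 12 had a positive log2 fold change (median 1.27), 5 were higher and 1 was lower at an unadjusted p under 0.05 (5.17% and 7.91% of all genes), and mt-Tc had -1.97 ± 0.51 (edgeR, adjusted p = 0.0602). The lowest p belonged to mt-Ti, the isoleucine transfer RNA that adjoins the end of mt-Nd1 at chrM:3706-3774, with 1.93 ± 0.39 (edgeR, adjusted p = 0.0172), which missed the threshold for a call. The mt-Ti share of counts ran from 0.00135% to 0.00889% over the NP mice and from 0.00427% to 0.0153% over the LP mice. It ran from 0.0169% to 0.0230% with HF and from 0.0148% to 0.0332% with HF + LP. In this share neither high-fat group overlapped NP. Of the 13991 genes tested, 827 were higher without overlap in HF compared to NP, and 66 in HF + LP compared to NP. mt-Ti was singled out here by its p in the same data. In HF + LP compared to HF, 5 of 12 were positive and none had an unadjusted p under 0.05. Transfer RNAs carry no long A tail as a rule, and which molecules gave these reads was not tested.

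The ribosomal RNAs varied more between mice than the 7 members. mt-Rnr2, the large ribosomal RNA, ran from 0.291% to 3.81% of counts, with group means from 1.73% (LP) to 2.27% (HF + LP), within the spread between mice. Relative to nuclear counts it varied 15.1-fold over the 20 mice and mt-Rnr1, the small ribosomal RNA, 11.6-fold, against 1.73-fold for mt-Nd1, 2.03-fold for mt-Cytb, 3.85-fold for mt-Nd2, and 4.75-fold for mt-Nd6. Among the members, mt-Nd2 followed the ribosomal RNAs most closely. Pearson's r of mt-Nd2 with mt-Rnr2 was 0.901 and Spearman's rho 0.887 over 20 mice (permutation p = 1e-05 for each, the smallest that 100000 permutations can give, adjusted p = 0.00012 over 36 pairs). Without the 2 mice farthest from the median of mt-Rnr2, r was 0.849. With each diet group centred on its mean it was 0.913, and it was 0.837 among the 10 mice with the number 3 in the library name, while the numbers 1 and 2 held 5 mice each and were not tested alone. The pair was singled out after its values were seen, and both genes were divided by the same nuclear counts of each library.

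The r of the other members with mt-Rnr2 ranged from positive to negative, and no difference between members was tested. mt-Co1 had an r of 0.697 (permutation p = 0.0003, adjusted p = 0.0018) and a rho of 0.665 (permutation p = 0.00173, adjusted p = 0.0125), and r was 0.457 without the 2 mice farthest from the median. mt-Nd6 had an r of 0.571 (permutation p = 0.0084, adjusted p = 0.0252) and a rho of 0.535 (permutation p = 0.0161, adjusted p = 0.0491), with r at 0.471 without those 2 mice. mt-Nd5 had an r of 0.469 (permutation p = 0.0367, adjusted p = 0.0696) and a rho of 0.326 (permutation p = 0.158, adjusted p = 0.237), with r at 0.175 without them. mt-Nd1 had an r of 0.1445 (permutation p = 0.546, adjusted p = 0.634) and a rho of -0.0857 (permutation p = 0.720, adjusted p = 0.728), with r at -0.411 without them. mt-Cytb had an r of -0.537 (permutation p = 0.0140, adjusted p = 0.0336) and a rho of -0.478 (permutation p = 0.0342, adjusted p = 0.0780). mt-Nd4 had an r of -0.116 (permutation p = 0.628, adjusted p = 0.706) and a rho of -0.0917 (permutation p = 0.700, adjusted p = 0.728). Without the 2 mice farthest from the median of mt-Rnr2, r was -0.505 for mt-Cytb and -0.147 for mt-Nd4. Among messengers, mt-Nd1 and mt-Nd5 had the highest r but not the highest rho, which mt-Nd4 and mt-Nd5 had (0.710). The former pair had an r of 0.810 (permutation p = 8e-05, adjusted p = 0.00072) and a rho of 0.656 (permutation p = 0.00248, adjusted p = 0.0149), and r was 0.557 without the 2 mice farthest from the median of mt-Nd1.

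**Figure D4:**
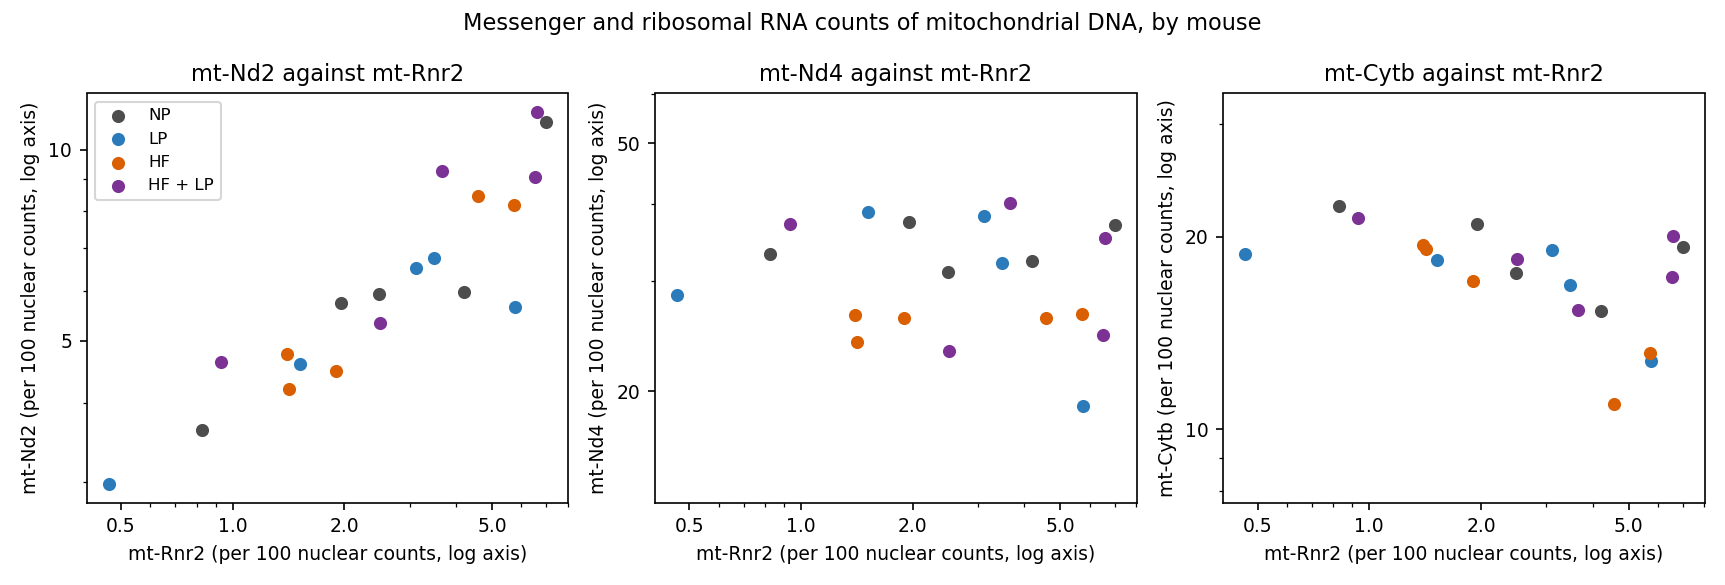
Counts of mt-Nd2, mt-Nd4, and mt-Cytb per 100 nuclear counts (vertical, log axis) against those of mt-Rnr2 (horizontal, log axis). Each point is a mouse, coloured by diet group. mt-Nd2 climbs with mt-Rnr2 (r = 0.901), mt-Nd4 does not follow it (r = -0.116), and mt-Cytb falls with it (r = -0.537).

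Genes that transcribe, process, and maintain mitochondrial DNA are encoded in the nucleus, and lists of them were described by counts. None of their members was called in any comparison (edgeR). Of 9 transcription genes, none had an unadjusted p under 0.05 in HF compared to NP or in HF + LP compared to HF. The log2 fold changes in HF compared to NP were -0.15 ± 0.15 for Polrmt, the mitochondrial RNA polymerase, 0.06 ± 0.13 for Tfam, which packages mitochondrial DNA and starts its transcription, and 0.64 ± 0.32 for the transcription factor Tfb2m (edgeR, adjusted p = 0.423). Of 24 genes of RNA processing and stability, 2 were lower at an unadjusted p under 0.05 in HF compared to NP, about the 7.91% of all genes lower at that level. They were Fastk (-0.28 ± 0.11), of a family that binds mitochondrial RNA, and Supv3l1 (-0.25 ± 0.11), the helicase of the mitochondrial RNA decay complex. Of 23 genes of replication and maintenance, 2 were lower, again near that share, Atad3a (-0.36 ± 0.14) and the topoisomerase Top1mt (-0.45 ± 0.21). In HF + LP compared to HF, a single replication gene (1 of 23) was higher at an unadjusted p under 0.05 (2.41% of all genes), the helicase Twnk (0.34 ± 0.12, edgeR, adjusted p = 0.681), and the nucleotide hydrolase Samhd1 had -0.27 ± 0.12. Of 12 biogenesis factors none reached an unadjusted p under 0.05 in these comparisons, and the coactivator Ppargc1a had -0.24 ± 0.21 in HF compared to NP and 0.30 ± 0.21 in HF + LP compared to HF.

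The nuclear-encoded subunits of complexes I, III, IV, and V, partners of the proteins encoded by the 7 genes, were tested for 77 genes, and none was called. In HF compared to NP 40 were positive and 37 negative, with a median log2 fold change of 0.0049, while library totals only gave 67 positive. In HF + LP compared to HF 74 of 77 were positive (median 0.12), among them all 36 of complex I, and 1 reached an unadjusted p under 0.05, Cox8a of complex IV (0.22 ± 0.11, edgeR, adjusted p = 0.999). This direction turned with library totals only, where 16 were positive. In LP compared to NP 69 of 77 were negative (median -0.15), 73 without LP mouse 13 and 47 with library totals only, and in HF + LP compared to LP 71 were positive (median 0.27), with 43 higher at an unadjusted p under 0.05 (6.26% of all genes). Without LP mouse 13 the 43 became 28, and with library totals only they became 6. Among the subunits named by the smallest p in HF compared to NP, Ndufv1 of complex I had -0.33 ± 0.15 and Cox4i2, an isoform of a complex IV subunit, -0.64 ± 0.26.

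The nuclear-encoded genes whose log2 CPM followed the mean of the 7 genes most closely over the 20 mice were Hif1an (r = 0.818), Trdn (r = 0.814), Fam81a (r = 0.798), Uqcc2 (r = 0.796), and Josd2 (r = 0.791). The median over all nuclear genes was -0.008. These values describe the same 20 libraries and share their scaling. Trdn encodes triadin of the calcium release complex, and Uqcc2 an assembly factor of complex III.

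Copies of mitochondrial genes lie in the nuclear genome and could share reads with them. On GRCm38, a stretch of chromosome 1 holds Gm28439, which matches the first 63.6% of mt-Nd4 without a mismatch but does not reach its end. mt-Co1 has a copy along its whole length, Gm13340 (chr2:22588103-22589647), with 97.6% identity, and mt-Nd6 one in Gm11408 with 93.6%. Gm11410 matches mt-Cytb at 92.9% identity, Gm13339 the last 49.1% of mt-Nd2 at 96.7%, and no annotated copy of mt-Nd1 was found by the search. Gm29216 matches the last 31.3% of mt-Co1 at 99.8% identity, up to its end. Over the 20 libraries the counts were 4407 for Gm13340, 727 for Gm13339, and 656 for Gm11410, against 2072080 for mt-Co1, 12384694 for mt-Nd2, and 34993444 for mt-Cytb. Copies without a mismatch exist for the members not analysed here: Gm28661 for mt-Co2, Gm28437 for mt-Co3, and Gm10925 for mt-Atp6, with 237, 71, and 681 counts, and Gm13341, 95.9% identical to mt-Co2, had 18367. How reads that match 2 places were assigned is not given in the sources used here.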

How the data were processed

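The authors prepared QuantSeq 3′ libraries with an oligo(dT) primer, used BlueBee software for alignment, and deposited raw counts per Ensembl gene and mouse. Per the submitters' processing notes the build was GRCm38 and DESeq2 1.22.2 was used. The counting program and annotation are not given in the sources used here. The 15956 listed genes have at least 60 counts over the 20 libraries.

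Members and lists were chosen with earlier results of these data known. Shares were computed from raw counts and compared by two-sided exact permutation tests (252 splits). Counts were fitted with edgeR 4.0.16 in R 4.3.3 (filterByExpr by group, 13991 genes, TMM, quasi-likelihood model of all 20 libraries, Benjamini-Hochberg adjustment). Standard errors were derived from the F statistic. Normalized counts are counts over the relative effective library size. DESeq2 1.42.0 was an alternative. In counts simulated for HF compared to NP (13839 genes, 200 changed by a log2 fold change of 1.5), edgeR recovered 188 with 2 false calls.

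All members are named in each fitted comparison. Other mitochondrial genes, genes from each list (those called, otherwise up to 3 with the smallest p in HF compared to NP and in HF + LP compared to HF), and the 5 nuclear genes most alike are named where reported. Animal numbers do not pair mice: same-numbered mice correlated at -0.55 to 0.48. Copies were searched with blastn on GRCm38 and named by GENCODE M21. Symbols were found for 15917 genes. Alternatives tried were other scalings, filters, thresholds and denominators, DESeq2, blocks, and leaving out each mouse. Counts of the nuclear-encoded subunits under 3 settings were added after values had been seen.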

Additional observations from a re-analysis of the deposited data

Results flagged for a closer look

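For each of 60 sets of 5 mice (a member's share of total or of mitochondrial counts, or the summed share, in a diet group), the gap between the highest or lowest mouse and its nearest neighbour was compared with Dixon's limit of 0.71 of the range. Chance alone flags about 1 in 20 groups, and 3 of the 60 sets held such a mouse, which is that share.

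HF mouse 5 had 14.9% of its total counts in mt-Nd4, and the other HF mice 16.03% to 16.23%. It lay on the far side from NP.

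LP mouse 13 stood apart on 2 shares of mitochondrial counts. Its mt-Nd5 share was 1.45%, against 1.86% to 2.02% in the other LP mice, and its mt-Cytb share was 32.0%, against 23.3% to 24.3%. The same library had the lowest median correlation with the other mice of its own diet group. What sets this library apart was not tested.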

How the results depend on the processing

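No setting brought any of the 7 members to a call in any comparison: the count of members called was 0 under the other scalings, filters and thresholds, DESeq2, the number in the library name, the animal number as a replicate block, the groups compared alone, and without any single mouse. The animal numbers do not pair mice. As a block they reduced all calls in HF compared to NP from 37 to 2, the higher nuclear-encoded subunits of HF + LP compared to LP (unadjusted p under 0.05) from 43 to 0, the members at that level from 5 to 0 there, from 5 to 2 in the interaction, and from 2 to 0 in LP compared to NP, and reversed the mt-Nd6 interaction (-0.46). Over all genes, DESeq2 called 159 in HF compared to NP, 13 in HF + LP compared to HF, 84 in HF + LP compared to LP, and 31 in HF + LP compared to NP, where edgeR called 37, 0, 14, and 4.

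Several values turned sign. With library totals only, the log2 fold change in HF compared to NP was 0.014 for mt-Nd1 and 0.023 for mt-Nd2, and the mt-Nd6 interaction was -0.22. Scaled to mitochondrial counts, which sets members against each other, HF compared to NP gave 0.17 for mt-Nd1, 0.19 for mt-Nd2, 0.029 for mt-Nd5, and 0.0069 for mt-Cytb. HF + LP compared to HF gave -0.071 for mt-Nd1, -0.017 for mt-Nd5, -0.11 for mt-Nd6, -0.066 for mt-Co1, and -0.048 for mt-Cytb, and the interaction -0.026 for mt-Nd1, -0.0045 for mt-Nd4, -0.49 for mt-Nd6, and -0.065 for mt-Cytb.

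For log2 ratios of shares, a nuclear denominator moved the summed share to -0.28 in HF compared to NP and to 0.27 in HF + LP compared to HF, and reversed mt-Nd1 (-0.095) and mt-Nd2 (-0.10) in HF compared to NP. Over nuclear counts the exact permutation p was 0.0159 for mt-Nd5 in HF compared to NP, and 0.0317 for mt-Nd1 and 0.0476 for mt-Nd5 in HF + LP compared to HF. Pairs of same-numbered animals as a block gave 0.26 for the summed share in HF + LP compared to LP (2 pairs), -0.35 for mt-Nd2 and 0.036 for mt-Cytb in HF compared to NP, and -0.095 for mt-Nd6 in HF + LP compared to HF. Within the number in the library name, mt-Nd6 was also -0.095 there, and mt-Nd1 -0.0032 in HF compared to NP. The centred log ratio gave -0.072 for mt-Nd1, -0.051 for mt-Nd2, -0.21 for mt-Nd5, and -0.25 for mt-Cytb in HF compared to NP, and 0.031 for mt-Nd5 and 0.017 for mt-Cytb in HF + LP compared to HF. The cause was not tested.

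Without single mice, signs turned in these ranges. Fold changes ran from -0.29 to 0.15 for mt-Nd2 and -0.053 to 0.055 for mt-Co1 in HF compared to NP, from -0.038 to 0.42 for mt-Nd6 in HF + LP compared to HF, and from -0.16 to 0.30 for the mt-Nd6 interaction. Shares of total counts in HF compared to NP ran from -0.028 to 0.050 for mt-Nd1 and -0.14 to 0.26 for mt-Nd2, and in HF + LP compared to HF from -0.22 to 0.26 for mt-Nd6 and -0.0048 to 0.18 for mt-Cytb. Shares of mitochondrial counts in HF + LP compared to HF ran from -0.048 to 0.072 for mt-Nd4, -0.039 to 0.0044 for mt-Nd5, -0.40 to 0.11 for mt-Nd6, -0.13 to 0.0016 for mt-Co1, and -0.15 to 0.037 for mt-Cytb, and in HF compared to NP from -0.078 to 0.11 for mt-Cytb. The mt-Nd4 share of total counts in HF compared to NP ran from -0.31 to -0.26 without single mice. With 5 mice a group, small differences may have been missed, and how small was not tested.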
